A study of Mus musculus with 21 samples.

Results

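A set of 10 genes that respond to low oxygen or carry out glycolysis was followed through mouse cranial neural crest cells and E10.5 pharyngeal arches (E, embryonic day). The 10 genes, Ndufa4l2, Slc2a1, Pgk1, Ldha, Aldoa, Vegfa, Adm, Bnip3, Egln3 and Pdk1, were taken by symbol from 2 gene count tables that each held 24594 genes, and all 10 were present in both. In the stage series, neural crest cells carrying the Wnt1::Cre driver and a red fluorescent ROSA reporter were sorted at E10.5 from pharyngeal arch 2 (PA2), and at E12.5 and E14.5 from the external ear (pinna), a derivative of PA2. In the genotype series, PA2 and pharyngeal arch 3 (PA3) of E10.5 wild-type (WT) embryos were set beside those of embryos homozygous for a deletion of HIRE1 (HIRE1del), a distant regulatory region of the Hoxa genes removed with CRISPR. Each of the 7 groups had 3 libraries, prepared as independent biological replicates from pooled embryos of both sexes on a mixed C57Bl/6J and CD1 background. The labels call every library cranial neural crest cells, but no sorting is stated for the genotype series, and the markers below show that other cell types were in it. Cells were freed with trypsin at E10.5 and E12.5 and with papain at E14.5, so enzyme and stage cannot be told apart in the comparisons with E14.5. Tissue and stage likewise cannot be told apart in the comparisons with E10.5, which set PA2 beside the pinna. The question put to the data was how these genes differ between stages, between arches and with the deletion.

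Glycolysis turns glucose into pyruvate, and lactate dehydrogenase turns pyruvate into lactate when pyruvate is not passed on to mitochondria. Many of its enzymes are targets of the hypoxia-inducible factors (HIF), whose alpha subunits are marked for destruction by prolyl hydroxylases while oxygen is present. Embryos develop at low oxygen, and HIF activity and glycolysis are known features of early embryonic tissues, neural crest included. Among the 10 genes, Slc2a1 encodes the glucose transporter GLUT1. Aldoa, Pgk1 and Ldha encode aldolase A, phosphoglycerate kinase 1 and lactate dehydrogenase A. Pdk1, Ndufa4l2 and Bnip3 act on mitochondria, Vegfa and Adm encode secreted factors that act on vessels, and Egln3 encodes the oxygen sensor PHD3.

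Libraries held 25.8 to 49.1 M counts (M, mega) in the stage series, with the 3 E14.5 libraries at 47.5 to 49.1 M, and 25.8 to 32.2 M in the genotype series. A count of 0 allows up to 3 counts, which was 0.0612 to 0.116 CPM (counts per M library counts) in a single stage library by total counts. Other CPM have library sizes scaled by TMM, except in the filter, which uses total counts. Of the 10 genes, 9 passed the filter of 1 CPM in at least 2 libraries in each table, and Adm passed it in neither. In the libraries labelled HIRE1del, Hoxa2 was at 5.87 ± 1.17 CPM in PA2 against 78.3 ± 5.49 in WT (SD, n = 3), and at 23.8 ± 1.75 against 61.4 ± 4.73 in PA3. In the sorted cells, 7 erythroid markers summed to 3.08 to 15.8 CPM and 6 macrophage markers to at most 3.09 CPM. In the arches the erythroid sum was 1528 to 24466 CPM, and 8 endothelial markers summed to 291 to 379 CPM. The 10 crest mesenchyme markers summed to 1078 to 1595 CPM in the E10.5 arches and to 2299 to 2938 CPM in sorted E10.5 crest. In sorted pinna crest they summed to 7267 to 7395 CPM at E12.5 and 15569 to 18960 CPM at E14.5. Of the 10, 5 were called higher and 5 lower at E14.5 against E12.5, where 32.6% and 33.1% of all genes were.

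Promoter windows are shown for 3 members that fell between E10.5 and E12.5, Ldha, Pgk1 and Aldoa, and for the 2 that rose, Vegfa and Pdk1. Each window runs from 250 bases before to 50 after a RefSeq start site in GRCm38.p6, and where RefSeq gave several start sites the window nearest to the start of the gene in GENCODE is shown. Capitals mark ACGTG or GCGTG on either strand, the core letters of the element that HIF binds.
Ldha (chr7:46845554-46845853, plus strand): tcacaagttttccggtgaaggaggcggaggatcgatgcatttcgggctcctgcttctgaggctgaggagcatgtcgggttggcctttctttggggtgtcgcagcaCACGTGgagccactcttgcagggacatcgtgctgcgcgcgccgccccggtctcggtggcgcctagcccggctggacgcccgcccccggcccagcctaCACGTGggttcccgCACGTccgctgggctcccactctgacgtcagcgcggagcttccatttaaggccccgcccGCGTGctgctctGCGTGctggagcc
Pgk1 (chrX:106186850-106187149, plus strand): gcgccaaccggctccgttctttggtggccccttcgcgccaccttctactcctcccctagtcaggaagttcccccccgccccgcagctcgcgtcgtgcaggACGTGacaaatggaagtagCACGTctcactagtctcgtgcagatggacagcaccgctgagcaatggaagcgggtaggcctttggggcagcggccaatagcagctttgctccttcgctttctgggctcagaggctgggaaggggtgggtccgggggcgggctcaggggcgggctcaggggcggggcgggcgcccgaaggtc
Aldoa (chr7:126800398-126800697, minus strand): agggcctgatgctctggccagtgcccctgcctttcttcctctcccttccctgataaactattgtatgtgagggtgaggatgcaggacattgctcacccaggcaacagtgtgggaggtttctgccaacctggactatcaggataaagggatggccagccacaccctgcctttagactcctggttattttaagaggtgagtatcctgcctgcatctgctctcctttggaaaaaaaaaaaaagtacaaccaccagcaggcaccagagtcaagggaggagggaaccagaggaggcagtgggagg
Vegfa (chr17:46032328-46032627, minus strand): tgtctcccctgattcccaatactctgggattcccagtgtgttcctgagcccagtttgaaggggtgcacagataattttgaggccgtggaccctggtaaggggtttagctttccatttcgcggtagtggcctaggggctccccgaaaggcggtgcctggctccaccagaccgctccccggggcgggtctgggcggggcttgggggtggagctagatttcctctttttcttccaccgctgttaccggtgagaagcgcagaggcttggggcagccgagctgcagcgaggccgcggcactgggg
Pdk1 (chr2:71872974-71873273, plus strand): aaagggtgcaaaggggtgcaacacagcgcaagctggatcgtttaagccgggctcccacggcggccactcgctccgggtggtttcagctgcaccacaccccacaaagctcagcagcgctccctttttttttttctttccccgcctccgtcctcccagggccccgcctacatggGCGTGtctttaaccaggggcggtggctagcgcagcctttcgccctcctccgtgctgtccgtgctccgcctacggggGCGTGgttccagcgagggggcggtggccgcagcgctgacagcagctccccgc
The Ldha window held 7 matches, 5 of them to ACGTG, where each CACGTG counts on both strands. The Pgk1 window held 2 matches, both to ACGTG, and the Pdk1 window held 2, both to GCGTG. The Aldoa and Vegfa windows held 0. Other start sites gave other counts, since 2 further Aldoa windows held 1 match each and a second Vegfa window held 2, while a second Ldha window held 2 and a second Pdk1 window held 0. One or more matches were found in 43.8% of 32851 RefSeq promoter windows of this length, and ACGTG alone in 19.6%. Windows were found for 9 of the 10 genes. A match is a string of letters and not a measured binding site.

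Between E10.5 PA2 and the E12.5 pinna, glycolytic members fell and Vegfa and Pdk1 rose. Of the 9 genes tested, 6 fell and 2 rose, where 33.7% of the 13438 genes tested were called lower, 35% higher and 68.8% in either direction. The median log2 fold change of the 9 was -1.25, and that of all genes was 0.01. Between E12.5 and E14.5, 8 of the 9 rose and 0 fell, where 32.6% of all genes were called higher, 33.1% lower and 65.7% in either direction. The median over the 9 was 1.02, against -0.01 over all genes. Of all genes called at this step 49.7% were higher, or 38.5% with scaling by total counts alone, which moved the median of all genes to -0.13 and left 8 members called. The E14.5 pinna differed from E10.5 PA2 in 8 of the 9, 5 higher and 3 lower, where 42% of all genes were called higher, 40% lower and 82% in either direction. Most genes were called between stages, so a call by itself says little about a member, and direction and size are given below. These 3 comparisons share libraries and are not independent. The members counted as higher at E14.5 include Ndufa4l2, which passed the filter only through its E14.5 libraries. Both counts therefore hold a gene kept for the group where it is high. Ndufa4l2 is also among the 6 falls at E12.5, on 13 counts against 1, a call lost in 4 of 13 alternatives. Calls are from edgeR's quasi-likelihood test at a Benjamini-Hochberg adjusted p below 0.05. In bulk samples, fewer cells of a type and less RNA per cell cannot be told apart.

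**Figure D1:**
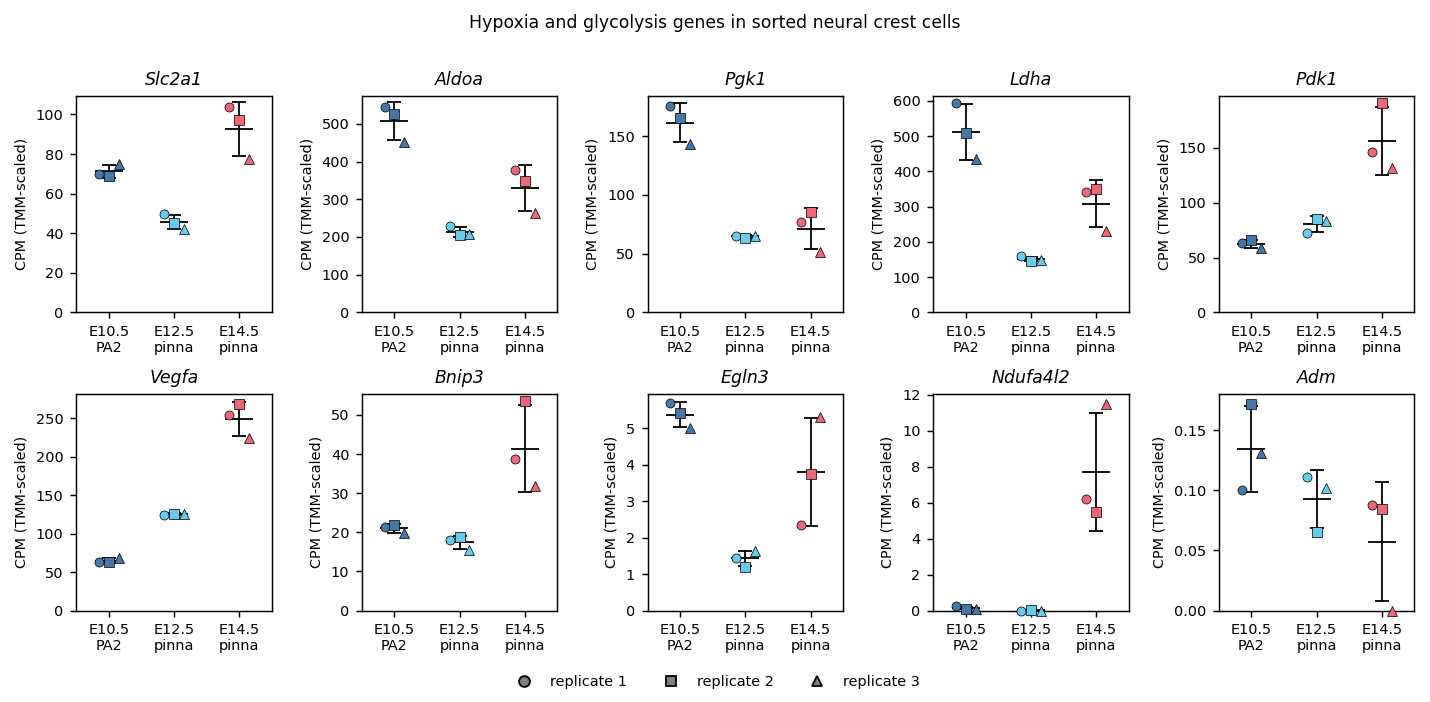
Level of each of the 10 genes in the 9 libraries of the stage series, in TMM-scaled CPM on axes that start at 0. Points are single libraries with a shape for each replicate number, and bars give mean and SD. Aldoa, Pgk1 and Ldha stand highest at E10.5, Vegfa and Pdk1 climb at each stage, and Ndufa4l2 is near 0 until E14.5.

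Slc2a1 (chr4:119108711-119137983, plus strand) was at 69.8, 69.0 and 75.0 CPM in the 3 E10.5 libraries, 49.7, 44.9 and 42.3 CPM at E12.5, and 104, 97.0 and 77.5 CPM at E14.5. The 3 stages did not overlap, with the lowest values at E12.5. The transporter fell by 0.64 ± 0.10 (log2 fold change ± SE) at E12.5 (edgeR adjusted p = 0.000189) and rose by 1.02 ± 0.10 at E14.5 (edgeR adjusted p = 6.26e-06). It ended 0.38 ± 0.10 above E10.5 (edgeR adjusted p = 0.00446).

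Aldoa (chr7:126795234-126800751, minus strand), which splits fructose bisphosphate, was at 546, 526 and 452 CPM at E10.5, 230, 204 and 209 CPM at E12.5, and 378, 350 and 263 CPM at E14.5. Every E14.5 library lay between the ranges of the earlier stages. Aldoa fell by 1.25 ± 0.12 on the log2 scale at E12.5 (edgeR adjusted p = 4.26e-06), to 42.2% of its E10.5 mean. It then rose by 0.62 ± 0.12 (edgeR adjusted p = 0.000882) and stayed below E10.5 by a log2 difference of -0.62 ± 0.12 (edgeR adjusted p = 0.00053).

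Ldha (chr7:46841475-46855627, plus strand) had the same order of stages. Its libraries were at 592, 509 and 434 CPM at E10.5, 159, 146 and 149 CPM at E12.5, and 342, 351 and 232 CPM at E14.5. Ldha fell by 1.76 ± 0.15 on the log2 scale to 29.5% of its E10.5 mean (edgeR adjusted p = 1.55e-06) and then rose 2.04-fold, a log2 change of 1.03 ± 0.15 (edgeR adjusted p = 0.000109). At E14.5 it was still at 60.2% of the E10.5 mean, a log2 difference of -0.73 ± 0.15 (edgeR adjusted p = 0.000719).

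Pgk1 (chrX:106187100-106203699, plus strand), the first enzyme of the pathway that yields ATP, was at 176, 165 and 143 CPM at E10.5 and at 65.4, 63.4 and 65.4 CPM at E12.5. Its E14.5 libraries, at 77.2, 85.4 and 51.4 CPM, lay on both sides of the E12.5 values. Pgk1 fell by 1.32 ± 0.15 on the log2 scale at E12.5 (edgeR adjusted p = 1.53e-05). From E12.5 to E14.5 the log2 fold change was 0.14 ± 0.15 with a 95% interval of -0.19 to 0.47 (edgeR adjusted p = 0.427). Replicate 3 decided that call, since without it the log2 fold change was 0.33 with an edgeR adjusted p of 0.00685. Against E10.5, Pgk1 at E14.5 stood at 44.2% of the mean (log2 -1.18 ± 0.15, edgeR adjusted p = 1.82e-05). Of the 50-base windows in Pgk1 transcripts, 53.9% also occur in transcripts of 5 other genes, Pgk1-rs7 above all, so its level is uncertain in every library.

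The other genes of glycolysis moved in both directions. Of all genes, 33.7% were called lower and 35% higher at E12.5, and 33.1% and 32.6% at E14.5 against E12.5. Of 20 tested from a list of 21, 12 were called lower and 6 higher at E12.5, with a median log2 fold change of -0.57. Hk2, a hexokinase, fell by 1.5 from 49.8 ± 3.48 to 17.6 ± 1.57 CPM, and Pfkl, the liver-type phosphofructokinase, fell by 1.17 from 285 ± 37.4 to 127 ± 8.24 CPM. Eno2, the neuronal enolase, rose by 1.96 and the regulatory enzyme gene Pfkfb4 by 1.20. At E14.5, 12 of the 20 were called higher and 3 lower against E12.5, with a median of 0.40. The platelet-type phosphofructokinase Pfkp rose by 4.12, from 9.62 to 167 CPM, and the aldolase Aldoc by 2.90, from 2.30 to 17.1 CPM. Pkm, the pyruvate kinase of most embryonic tissues, fell at that step by 0.56 to 588 ± 87.5 CPM, and Ldhb, the other lactate dehydrogenase subunit, fell by 1.96. Between E10.5 and E14.5 Ldhb went from 166 to 19.0 CPM, a fall of 3.12, while Ldha fell by 0.73. Summed over the list, glycolysis genes were at 3088 to 3375 CPM at E10.5, 1949 to 2105 at E12.5 and 1997 to 2417 at E14.5. The sums include Gapdh, with stage means of 11.3 to 21.8 CPM, and Eno1, with 0.393 to 4.89 CPM, both genes with near-identical copies in the mouse genome, whose counts are therefore uncertain.

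Pdk1 (chr2:71873224-71903858, plus strand) encodes a kinase that switches off pyruvate dehydrogenase. It was at 63.5, 65.6 and 58.4 CPM at E10.5, 72.2, 85.5 and 83.4 CPM at E12.5, and 146, 191 and 132 CPM at E14.5, with no overlap between stages. Pdk1 rose by 0.36 ± 0.12 on the log2 scale at E12.5 (edgeR adjusted p = 0.0214) and by 0.96 ± 0.12 at E14.5 (edgeR adjusted p = 3.97e-05). The first rise was not called when E10.5 replicate 3, E12.5 replicate 2 or E12.5 replicate 3 was left out, with edgeR adjusted p of 0.074, 0.0682 and 0.0575. Over both steps it rose 2.50-fold, a log2 change of 1.32 ± 0.12 (edgeR adjusted p = 1.21e-06).

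Genes that govern the entry of pyruvate into mitochondria were called in both directions too. Over all genes, 35% were called higher and 33.7% lower at E12.5, and 32.6% and 33.1% at E14.5 against E12.5. At E12.5, 4 of 10 were higher and 6 lower, with a median log2 fold change of -0.19. Pdk2 rose by 1.52, from 8.71 to 25.0 CPM, and Pdk3 fell by 0.70, from 73.8 to 45.3 CPM, both of them kinases of the same family as Pdk1. The pyruvate dehydrogenase phosphatases, which reverse what these kinases do, also divided, with Pdp1 up by 1.14 and Pdp2 down by 0.55. At E14.5, 3 of the 10 were higher than at E12.5 and 3 lower, with a median of -0.06, and the carrier subunit gene Mpc2 fell by 0.73.

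Ndufa4l2 (chr10:127514967-127517154, plus strand), a HIF target whose product lowers the activity of mitochondrial complex I, was nearly undetected before E14.5. It had 7, 3 and 3 counts at E10.5, 0, 1 and 0 at E12.5, and 281, 260 and 524 at E14.5. In CPM the E14.5 libraries were at 6.19, 5.47 and 11.5, with replicate 3 the highest. The ratio of E14.5 to E12.5, with 1065 against 1 count, was 668 (95% counting interval 120 to 26414). The rise was called at E14.5 against both E12.5 (edgeR adjusted p = 3.83e-07) and E10.5 (edgeR adjusted p = 2.46e-07), the second as 53.1-fold. It passed the filter on low counts only through its E14.5 libraries, so these are tests on a gene kept for the group where it is high. The ratio of E10.5 to E12.5 was 12.6 (95% counting interval 1.89 to 536), from 13 counts against 1. That fall had an edgeR adjusted p of 0.025, but its adjusted p was 0.0931 by limma-voom and, by edgeR without E10.5 replicate 1, E12.5 replicate 1 or E12.5 replicate 3, 0.0904, 0.0733 and 0.0781. Intervals from counts cover counting error only.

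Ndufa4l2 is also known as a marker of pericytes, the cells that wrap small vessels, so their markers are given beside it. Over 7 pericyte markers the summed level was 619 to 685 CPM at E10.5, 701 to 878 at E12.5 and 1344 to 1612 at E14.5. Against E12.5, 5 of the 7 were called higher and 1 lower at E14.5, where 32.6% and 33.1% of all genes were. Abcc9 went from 1.35 to 39.8 CPM and Kcnj8 from 0.13 to 6.24 CPM, while Rgs5 was at 16.2 CPM at E10.5, 1.10 at E12.5 and 2.58 at E14.5. Most of the summed level at E12.5 and E14.5 came from the other pericyte markers, Pdgfrb, Cspg4, Notch3 and Acta2. No pericyte marker was at 0 in any stage group. The part of pericytes in the Ndufa4l2 values was not tested.

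Bnip3 (chr7:138890836-138909519, minus strand), whose product sits on the outer mitochondrial membrane and promotes mitophagy, was at 21.4, 21.9 and 19.7 CPM at E10.5 and at 18.05, 18.8 and 15.5 CPM at E12.5. The log2 difference between these stages was -0.27 ± 0.16, with a 95% interval of -0.63 to 0.10 (edgeR adjusted p = 0.169). It was called when only the 6 libraries of that comparison were fitted (edgeR adjusted p = 0.0264). At E14.5 the libraries were at 38.7, 53.5 and 31.8 CPM, above all earlier ones, and Bnip3 rose by 1.25 ± 0.16 over E12.5 (edgeR adjusted p = 4.46e-05) and by 0.98 ± 0.16 over E10.5 (edgeR adjusted p = 0.000134). Of its 50-base windows, 47.2% are shared with 6 other genes, and 504 exon bases overlap the antisense gene Gm45507. The paper calls the libraries unstranded, and these counts cannot be parted here.

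**Figure D2:**
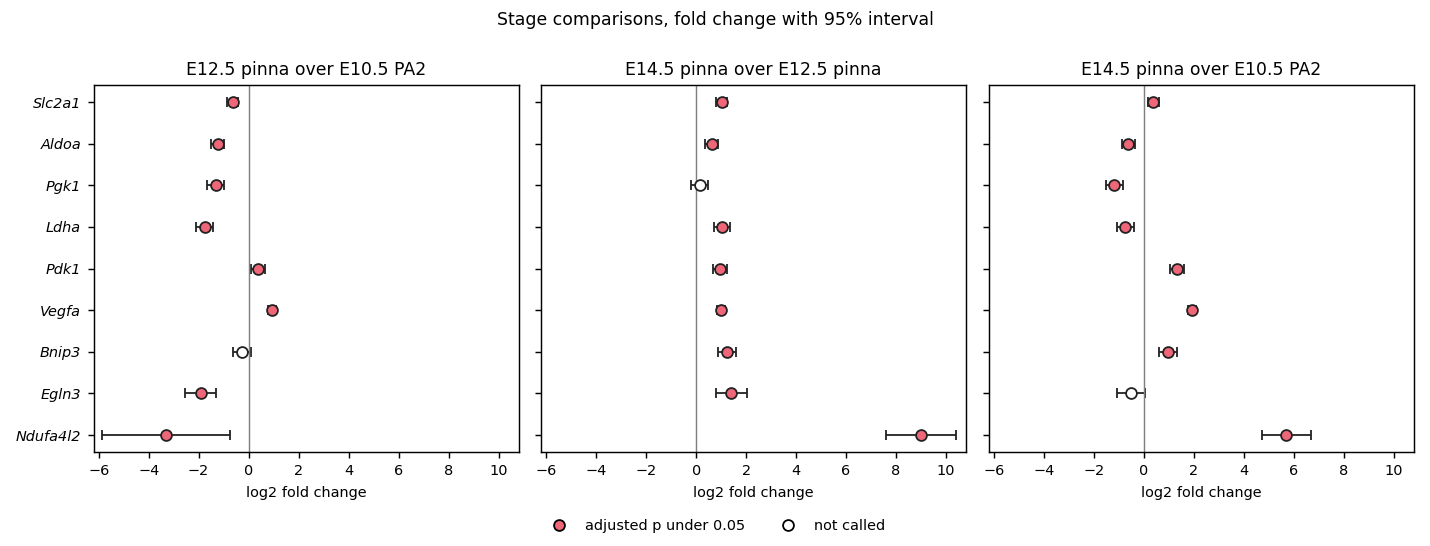
Log2 fold change of the 9 tested genes in the 3 stage comparisons, with 95% intervals from the edgeR fit. Filled points passed an adjusted p of 0.05. Glycolytic members lie left of 0 in the first panel, and 8 of the 9 genes are called right of 0 in the second, up to 9.0 for Ndufa4l2.

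Vegfa (chr17:46016993-46032369, minus strand), the main growth factor for endothelial cells, rose at both steps. Its libraries were at 62.6, 63.0 and 68.9 CPM at E10.5, 124, 126 and 125 CPM at E12.5, and 254, 268 and 224 CPM at E14.5. The spread within a stage was far smaller than the steps, which were 1.93-fold (log2 0.95 ± 0.07, edgeR adjusted p = 5.53e-07) and 1.99-fold (log2 0.99 ± 0.07, edgeR adjusted p = 4.46e-07). From E10.5 to E14.5 the log2 change was 1.94 ± 0.07 (edgeR adjusted p = 6.59e-10).

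Adm (chr7:110627661-110629820, plus strand), which encodes the vessel peptide adrenomedullin, was scarcely detected in sorted crest. Its counts were 3, 5 and 4 at E10.5, 3, 2 and 3 at E12.5, and 4, 4 and 0 at E14.5. The ratio of E14.5 to E10.5 was 0.431 with a 95% counting interval of 0.153 to 1.15, so no difference was detectable at this depth. In fits with no filter Adm was not called in any comparison, with edgeR adjusted p from 0.248 between E10.5 and E14.5 to 0.992 for the difference of the deletion's effects.

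Receptors and relatives of these factors mostly rose with stage. The shares of all genes called higher and lower were 35% and 33.7% at E12.5, and 32.6% and 33.1% at E14.5 against E12.5. Of 12 tested, 7 were called higher and 2 lower at E12.5, with a median log2 fold change of 1.19, and 9 higher and 1 lower at E14.5 against E12.5, with a median of 1.67. Kdr, the main signalling receptor for Vegfa, went from 3.26 to 17.97 and then 141 CPM, with log2 rises of 2.46 and 2.97. The lymphatic growth factor genes Vegfd and Vegfc fell by 1.96 and 0.76 at E12.5, and Vegfd rose by 2.66 at E14.5. Ramp1, listed among these partners, was at 2 counts over the 3 E10.5 libraries, 163 at E12.5 and 875 at E14.5. It was under 1 CPM in every E10.5 library and passed the filter only through later stages. The count called higher at E12.5 therefore holds a gene kept for the groups where it is high. The co-receptor gene Nrp2 fell by 1.24 between E12.5 and E14.5, from 287 to 122 CPM. Kdr is also among the 8 listed markers of endothelial cells. It made up most of their sum at E12.5 and E14.5. With Kdr, these markers of endothelial cells summed to 7.43 to 10.4 CPM at E10.5, 20.3 to 29.4 at E12.5 and 112 to 175 at E14.5. Pecam1 and Cdh5, which define that cell type, were at 2.43 and 2.18 CPM at E14.5 and at 2.89 and 0.914 CPM at E10.5, and Cldn5 was at 0 in every stage library.

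Egln3 (chr12:54178981-54203860, minus strand) was at 5.69, 5.42 and 5.00 CPM at E10.5, 1.45, 1.21 and 1.63 CPM at E12.5, and 2.33, 3.74 and 5.30 CPM at E14.5. The E14.5 libraries lay above E12.5, and replicate 3 reached into the E10.5 range. Egln3 fell by 1.91 ± 0.28 on the log2 scale at E12.5 (edgeR adjusted p = 0.000101) and rose by 1.41 ± 0.28 at E14.5 (edgeR adjusted p = 0.00102). The difference between E14.5 and E10.5 was -0.50 ± 0.26 on the log2 scale (edgeR adjusted p = 0.0887). Without E14.5 replicate 3 that difference was -0.81 and was called (edgeR adjusted p = 0.00672).

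The HIF subunits and their regulators moved less uniformly. Among all genes, 35% were called higher and 33.7% lower at E12.5, and 32.6% and 33.1% at E14.5 against E12.5. Of 11 tested, 3 were called higher and 3 lower at E12.5, and 5 higher and 4 lower at E14.5 against E12.5, with medians of -0.11 and 0.11. Hif1a, the main alpha subunit, was at 269 ± 14.1, 247 ± 20.6 and 287 ± 16.6 CPM in order of stage. Epas1, which encodes HIF2 alpha, fell by 3.17 from 3.36 to 0.375 CPM at E12.5 and rose by 1.81 to 1.31 CPM at E14.5. Hif3a, the third alpha subunit gene, rose by 1.47 and then by 2.32 to 134 CPM. Arnt2, which encodes a beta partner, fell by 1.95 at E14.5, from 122 to 31.4 CPM, and Vhl, which marks the alpha subunits for destruction, fell by 0.40.

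Other known HIF targets were called in both directions at E12.5. Of 24 tested, 7 were higher and 9 lower, near the shares of all genes called (35% and 33.7%), with a median log2 fold change of -0.15. At E14.5 against E12.5, 15 were higher and 3 lower, where 32.6% and 33.1% of all genes were, with a median of 0.58. Lox, which cross-links collagen, rose by 3.01 at E12.5, from 27.1 to 219 CPM, and Ndrg1 by 2.97, from 2.58 to 20.3 CPM. Ak4, a mitochondrial adenylate kinase, fell by 1.66 from 17.3 to 5.46 CPM and was at 17.9 CPM at E14.5. The transferrin receptor gene Tfrc fell by 0.85. At E14.5, Stc2 rose by 4.19 and the transcription factor gene Bhlhe40 by 3.70, while Hmox1, which breaks down heme, fell by 1.24.

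Genes of the dissociation and stress response moved with the stages. The 10 listed, Fos and Jun among them, summed to 249 to 301 CPM at E10.5, 580 to 906 at E12.5 and 1813 to 2067 at E14.5, with Hspa1a and Hspa1b at 0 in the stage series. Cartilage markers summed to 1660 to 1704, 666 to 709 and 337 to 372 CPM in order of stage. Glia and melanocyte markers summed to 14.7 to 16.3, 32.0 to 44.4 and 312 to 363 CPM. The part of these in the members' values was not tested.

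Replicate 3 of E14.5 stood apart from the other two libraries of its group for these genes. It was the lowest for Slc2a1, Aldoa, Pgk1, Ldha, Pdk1, Vegfa and Bnip3 and the highest for Egln3 and Ndufa4l2. The coefficient of variation at E14.5 was 8.95% for Vegfa, 24.9% for Pgk1, 26.8% for Bnip3 and 39.1% for Egln3. The 10 genes together summed to 1348, 1405 and 1028 CPM in the 3 E14.5 libraries, and to 690 to 719 CPM at E12.5. Without that library all 9 tested genes were called between E12.5 and E14.5, and all 9 between E10.5 and E14.5.

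**Figure D3:**
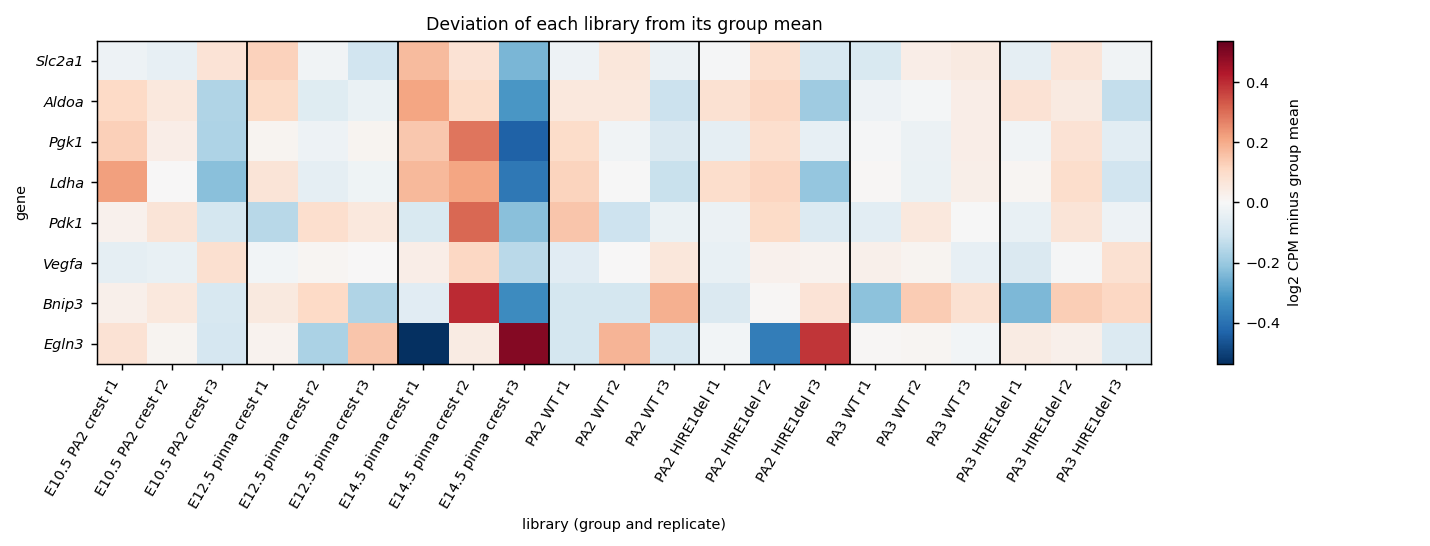
Deviation of log2 CPM from the group mean for the 8 genes above 1 CPM in every library (rows) in each of the 21 libraries (columns, grouped by vertical lines). Red is above and blue below the group mean, and E14.5 replicate 3 is blue for 7 genes and red for Egln3.

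Within groups, the enzymes of glycolysis varied together. Over the 21 libraries, deviations of log2 CPM from the group mean gave Pearson r = 0.94 for Ldha with Aldoa (Spearman rho 0.91) and 0.90 for Ldha with Pgk1 (rho 0.88). Without the E14.5 libraries these r were 0.91 and 0.86 over 18 libraries. The other pairs changed more when E14.5 was left out. The 28 pairs of 8 genes had a median r of 0.39 with 21 positive over 21 libraries, and a median of -0.04 with 14 positive over 18. The lowest r over 21 libraries was -0.70, for Slc2a1 with Egln3 (rho -0.46), which was -0.40 over 18. Over 18 libraries the lowest was -0.74, for Aldoa with Vegfa, a pair at 0.04 over 21. Ldha and Pgk1 with Vegfa were likewise at -0.69 and -0.64 over 18 libraries and at 0.12 and 0.38 over 21. Libraries of a series share preparation and sequencing, so these values describe the libraries and carry no test.

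Among 11158 genes, the 3 whose deviations were most like those of Ldha were Pfkl (r = 0.93), Rrp15 (0.89) and Pkm (0.89). Those most like Pgk1 were Aif1l (0.90), Hmgb3 (0.87) and Fam20b (0.87), and those most like Bnip3 were Cbx3 (0.91), Eml4 (0.90) and Usp47 (0.87). Egln3 was most like Gm14305 (0.88) and the histone genes H2bc8 (0.87) and H2ac4 (0.87). These 4 members had the largest spread within groups.

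Between the arches at E10.5, Ndufa4l2 was higher in PA3 in both genotypes and the rest of the members differed little. In WT, 2 of 9 were called higher in PA3 and 0 lower, where 19.1% of the 14383 genes tested were called higher, 17.4% lower and 36.5% in either direction. In HIRE1del, 1 of 9 was called higher and 0 lower, where 18.7% of all genes were called higher, 14.7% lower and 33.4% in either direction. Ndufa4l2 was at 0.465, 0.561 and 0.369 CPM in PA2 of WT and at 1.91, 2.14 and 1.67 CPM in PA3, from 40 and 162 counts in all. In HIRE1del it was at 0.489, 0.390 and 0.222 CPM in PA2 and 1.53, 1.43 and 1.11 CPM in PA3. PA3 was above PA2 in every library of both genotypes, by 4.11-fold in WT (log2 2.03 ± 0.29, edgeR adjusted p = 0.000157) and 3.71-fold in HIRE1del (log2 1.88 ± 0.31, edgeR adjusted p = 0.000544). Every PA2 library was under 1 CPM, so Ndufa4l2 passed the filter only through PA3, and these too are tests on a gene kept for the group where it is high.

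Vegfa was higher in PA3 of WT by 0.17 ± 0.05 on the log2 scale (edgeR adjusted p = 0.0283), at 69.8, 69.3 and 66.5 CPM against 58.4, 61.2 and 63.6 in PA2. In HIRE1del the difference was -0.12 ± 0.05 (edgeR adjusted p = 0.104), or -0.16 without PA3 HIRE1del replicate 3, where it was called (edgeR adjusted p = 0.0432). The WT call was lost without PA2 replicate 1 or 2 or PA3 replicate 1 or 2, with edgeR adjusted p of 0.103, 0.0577, 0.082 and 0.078. Pgk1 was at 162 to 183 CPM in PA2 of WT and 152 to 159 CPM in PA3, a log2 difference of -0.14 ± 0.06 (edgeR adjusted p = 0.0685) that was called with same-numbered PA2 and PA3 libraries as a block (edgeR adjusted p = 0.0377). The other 6 tested members had log2 differences between -0.38, for Egln3, and 0.10, for Slc2a1, in WT, and between -0.17, for Pdk1, and 0.07, for Slc2a1, in HIRE1del.

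Markers of other cell types also differed between the arches. Shares of all genes called higher and lower in PA3 were 19.1% and 17.4% in WT, and 18.7% and 14.7% in HIRE1del. The erythroid sum was 12378 to 24466 CPM in PA3 against 1528 to 3314 in PA2. Pericyte markers summed to 487 to 601 CPM in PA3 and 347 to 418 in PA2, with 5 of 7 called higher in PA3 of WT and 4 of 7 in HIRE1del. The endothelial sum was 342 to 379 CPM against 291 to 305, and the epithelial sum 448 to 725 against 229 to 285. Of 8 dissociation and stress genes tested, 6 were lower in PA3 in each genotype. The part of these in the Ndufa4l2 and Vegfa differences was not tested.

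Genes around the members were called between arches in both directions. For comparison, 19.1% of all genes were called higher in PA3 and 17.4% lower in WT, and 18.7% and 14.7% in HIRE1del. In WT, 5 of 20 glycolysis genes were higher in PA3 and 5 lower, and in HIRE1del 3 were higher and 9 lower. The neuronal-type glucose transporter gene Slc2a3 was lower in PA3 by 0.39 in WT and 0.44 in HIRE1del, at 109 against 143 CPM and 105 against 142 CPM. Of 11 oxygen-sensing genes, 3 were higher and 3 lower in WT, and 3 higher and 2 lower in HIRE1del. Hif3a was higher in PA3 by 1.36 and 1.41 in the 2 genotypes, and Epas1 by 0.50 and 0.71. Of 25 other HIF targets, 2 were higher and 2 lower in WT and 5 higher and 2 lower in HIRE1del. Cox4i2, a subunit of cytochrome oxidase, was higher in PA3 by 1.18 and 0.81, and Lox was lower by 2.02 and 2.04. Of the 11 genes of pyruvate entry tested, 1 was higher and 3 lower in WT, and 1 higher and 1 lower in HIRE1del, with Pdk2 higher by 0.86 and 0.58. Of 11 partners of Vegfa and Adm, 3 were higher and 1 lower in WT and 5 higher and 1 lower in HIRE1del. The Vegfa co-receptor gene Nrp1 was higher by 0.87 in WT, at 90.6 against 49.5 CPM, and Ramp3 was lower by 1.11 and 1.27.

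**Figure D4:**
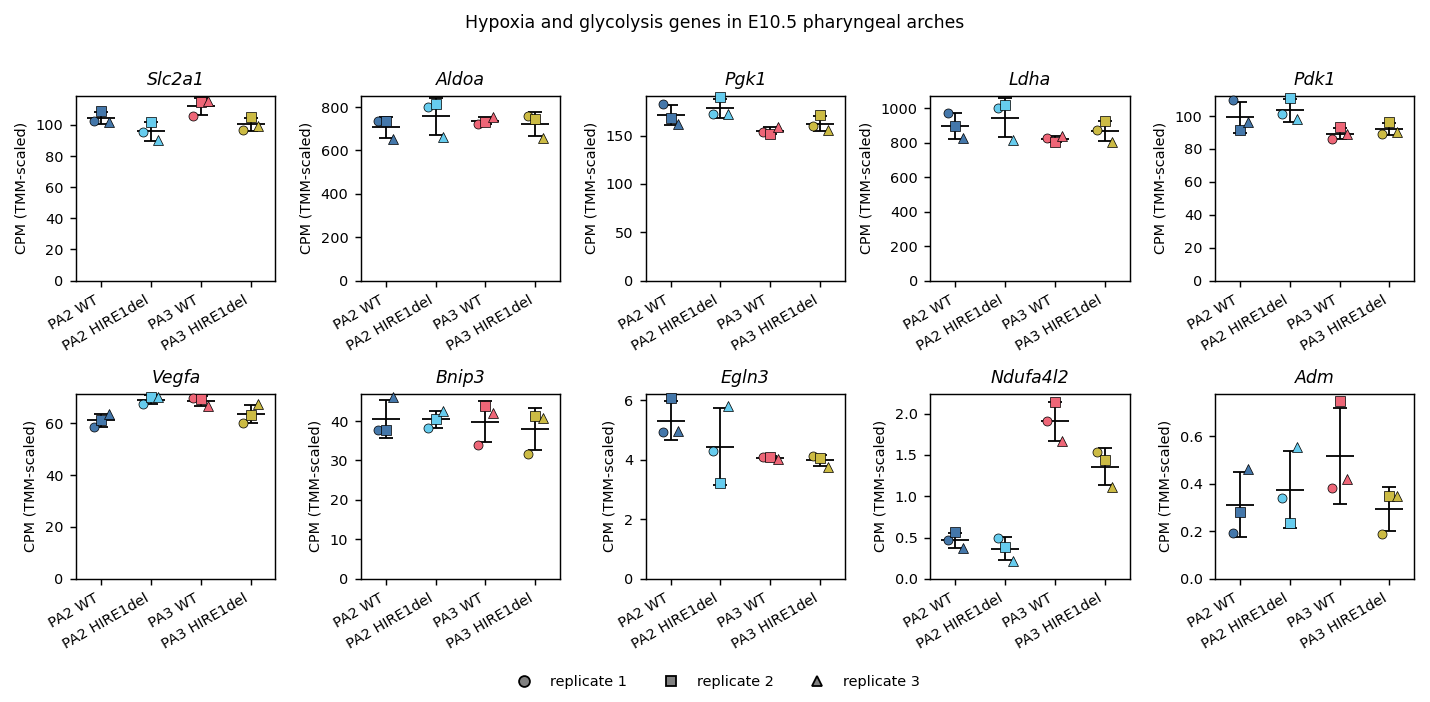
Level of each of the 10 genes in the 12 libraries of the genotype series, in TMM-scaled CPM on axes that start at 0. Points are single libraries with a shape for each replicate number, and bars give mean and SD. Ndufa4l2 stands higher in PA3 in both genotypes. Libraries of Adm, at 0.187 to 0.750 CPM, and of Egln3, at 3.23 to 6.07 CPM, are spread out, and the 4 groups lie close together for the other genes.

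The comparisons of genotypes use the same 12 libraries as those of the arches. With HIRE1 deleted, 0 of the 9 tested members were called in PA2 and 0 in PA3, by edgeR and by DESeq2. The background was low, with 0.438% of the 14383 genes called in PA2 and 0.216% in PA3. At an unadjusted p below 0.05, 1 member passed in each arch, where 8.57% and 9.73% of all genes did. The log2 fold changes lay between -0.33 and 0.18 in PA2 and between -0.49 and 0.08 in PA3. The 95% intervals of the 7 members above 30 CPM bound their change more closely than those of Egln3 and Ndufa4l2. For Ldha the interval was -0.11 to 0.26 in PA2 and -0.11 to 0.26 in PA3, and for Ndufa4l2 it was -1.09 to 0.42 and -1.04 to 0.07. A call that was not made does not show that the genotypes were alike.

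Vegfa was the member at an unadjusted p below 0.05 in PA2, at 67.2, 70.1 and 70.0 CPM in HIRE1del and 58.4, 61.2 and 63.6 CPM in WT, which did not overlap. Its log2 fold change was 0.18 ± 0.05 with a 95% interval of 0.06 to 0.29 (edgeR adjusted p = 0.324). In PA3 it was -0.11 ± 0.05 (edgeR adjusted p = 0.549). The difference of the 2 effects, PA2 minus PA3, was 0.29 ± 0.08 with an edgeR adjusted p of 0.661, and 0 of the 9 members were called for it, where 0.0487% of all genes were. At an unadjusted p below 0.05 it was 1 of the 9, where 5.52% of all genes passed. Slc2a1 was the member in PA3, at 96.9, 104.8 and 99.0 CPM in HIRE1del and 105.4, 114.6 and 115.5 CPM in WT, which did not overlap, with a log2 difference of -0.16 ± 0.06 (edgeR adjusted p = 0.415). In PA2 its log2 fold change was -0.12 ± 0.06 (edgeR adjusted p = 0.597). Ndufa4l2 was at 1.11 to 1.53 CPM in PA3 of HIRE1del and 1.67 to 2.14 CPM in PA3 of WT, with a log2 difference of -0.49 ± 0.26 (edgeR adjusted p = 0.572).

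By edgeR, none of the listed genes of glycolysis, oxygen sensing, other HIF targets, pyruvate entry or the partners of Vegfa and Adm was called between genotypes in either arch. These lists had 20, 11, 25, 11 and 11 genes tested. At an unadjusted p below 0.05 there were 4, 1, 2, 0 and 2 of them in PA2, where 8.57% of all genes passed. In PA3 there were 5, 1, 2, 1 and 1, where 9.73% of all genes passed. DESeq2 was not counted for these lists. The median log2 fold change of the glycolysis list was 0.08 in PA2 and 0.00 in PA3, against -0.01 and 0.00 over all genes. The erythroid, pericyte and endothelial sums of the genotypes overlapped in both arches. In PA2 neuron markers summed to 56.9 to 58.9 CPM in HIRE1del and 76.2 to 78.6 in WT, and cartilage markers to 1357 to 1446 CPM in HIRE1del and 1079 to 1269 in WT. Of 6 neuron and 4 cartilage markers tested there, 0 were called, where 0.438% of all genes were. At an unadjusted p below 0.05, 1 of each list passed, where 8.57% of all genes did. Log2 fold changes ran from -0.63 to -0.01 for neuron and from -1.58 to 0.25 for cartilage markers. The part of these markers in the Vegfa values was not tested.

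**Figure D5:**
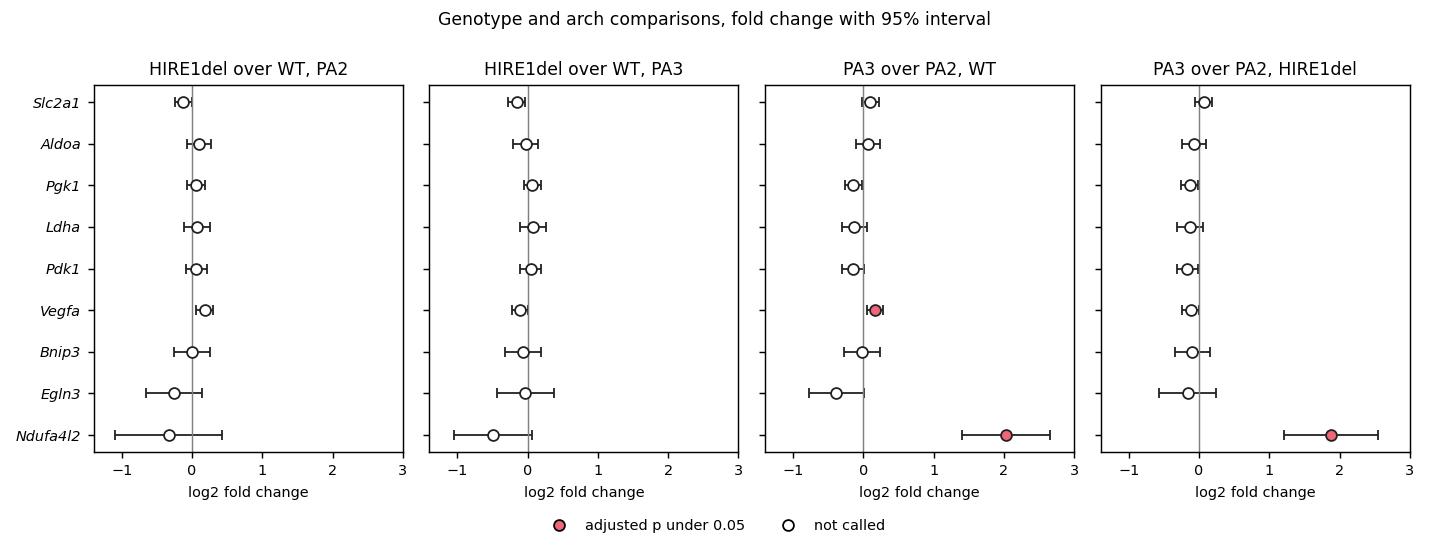
Log2 fold change of the 9 tested genes with 95% intervals from the edgeR fit, for HIRE1del over WT in each arch and for PA3 over PA2 in each genotype. Filled points passed an adjusted p of 0.05, which were Ndufa4l2 in both arch comparisons and Vegfa in that of WT.

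Levels are compared between genes per kilobase of exon. At E10.5 in sorted crest the order was Aldoa (174 ± 17.0 CPM per kb), Ldha (155 ± 24.0), Pgk1 (71.9 ± 7.46), Slc2a1 (20.3 ± 0.92), Vegfa (15.1 ± 0.82), Bnip3 (9.27 ± 0.50), Pdk1 (8.03 ± 0.47), Egln3 (2.02 ± 0.13), Ndufa4l2 (0.132 ± 0.071) and Adm (0.0829 ± 0.022). The neighbours Aldoa and Ldha, and Ndufa4l2 and Adm, differed by less than the sum of their SDs. At E14.5 Aldoa (113 ± 20.6) and Ldha (93.1 ± 20.1) again led and differed by less than the sum of their SDs, followed by Vegfa at 58.1 ± 5.20 CPM per kb, above Pgk1 at 31.8 ± 7.90. Ndufa4l2 at 7.04 ± 2.99 CPM per kb had passed Egln3 at 1.42 ± 0.56.

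In PA2 of WT embryos the highest members were Ldha at 271 ± 22.3 and Aldoa at 243 ± 16.3 CPM per kb, followed by Pgk1 at 76.3 ± 4.78. Ldha and Aldoa differed by less than the sum of their SDs. Slc2a1 was at 29.8 ± 1.1, Bnip3 at 17.9 ± 2.15, Vegfa at 14.3 ± 0.61 and Pdk1 at 12.7 ± 1.23 CPM per kb, and Vegfa and Pdk1 lay within the sum of their SDs. The series were normalized apart and differ in sorting and read layout, so levels across them stand side by side with no test. Adm was at 0.187 to 0.750 CPM in the arches and at 0 to 0.172 CPM in sorted crest. Ndufa4l2 in PA2 was at 0.465 ± 0.096 CPM in WT arches and 0.145 ± 0.077 CPM in sorted E10.5 crest.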

How the data were processed

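RNA was measured in 21 libraries, 9 in the stage series (single-end, sorted crest) and 12 in the genotype series (paired-end, dissected arches). The authors aligned reads to GRCm38/mm10 with QuasR and Rhisat2 and counted exonic reads per gene with qCount, and the deposited values are these raw counts, used here as they are. The paper calls the libraries unstranded, yet gives the orientation option of qCount as opposite, and this conflict was not settled. How reads with several matches were placed was also not settled from the sources used here. Rows without a gene symbol numbered 18 in each table.

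Genes at 1 CPM or more in at least 2 libraries were kept (13438 in the stage and 14383 in the genotype series). CPM use TMM-scaled library sizes, except in this filter and in the bound for a count of 0, which use total counts. Each table was fitted on its own with 1 mean per group by edgeR 4.0.16 (quasi-likelihood test, R 4.3.3, limma 3.58.1), with Benjamini-Hochberg adjustment over all genes kept and calls at 0.05. Tests are two-sided. Counting intervals are exact 95% intervals and a count of 0 allows up to 3 counts. Replicates differed beyond sampling noise (chi-square per degree of freedom 6.68 to 44.2), so each was counted once. The fit was tested on simulated data. Windows of 50 bases shared between transcripts came from GENCODE, and promoters from RefSeq.

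Every member is described. From each list, up to 2 called genes with the largest rise and 2 with the largest fall and without overlap of groups could be named per comparison. The text names part of these, chosen with their values known, and a gene among them is not reported here. Hif1a, Rgs5, Abcc9, Kcnj8, Pecam1, Cdh5, Gapdh, Eno1, Ak4 at E14.5 and Ldhb over both steps were chosen after their values were seen. Members and lists were chosen with earlier results of these data known. PA2 and PA3 libraries of the same number deviated together in both genotypes (r = 0.347, 0.205 and 0.256 in WT, 0.293, 0.356 and 0.382 in HIRE1del), so a block of same-numbered PA2 and PA3 libraries within a genotype was run for the arches. This pairing comes from the data, and the labels do not say what a number shares. Alternatives were DESeq2 1.42.0, limma-voom, other scalings and filters, blocks and leaving out each library.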

Additional observations from a re-analysis of the deposited data

How the results depend on the processing

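Over 1469 alternative values for single genes, levels and shares, 1434 counted as the same, 12 lost the call and 10 gained it. Another 13 values without a test moved, and 0 values changed sign with a call on either side. Tested values counted as the same if they stayed on 1 side of the threshold, and others if they moved within the spread or a set limit. A change of sign without a call also counted as the same. Bnip3 with the deletion in PA2, for example, ran from -0.05 to 0.10. Of 256 alternative counts of genes, 227 were within 1.5 times the value given and 29 were not. Of the 9 tested members, the count called between the arches of WT, 2 as reported, was 1 with no filter, 1 with a filter of 1 CPM in every library, 3 with the block of same-numbered arch libraries, and 1 to 3 when 1 library was left out. In HIRE1del the count, 1 as reported, was 0 with 1 CPM in every library, which removes Ndufa4l2, and 1 to 2 when 1 library was left out. The filter of 1 CPM in every library removes Ndufa4l2 in WT as well. Pgk1 was called in WT with the block, and the WT call of Vegfa was lost without some libraries, as given above. The cause of the other changes was not tested. Member counts stayed at 6 to 8 between E10.5 and E12.5 and at 8 to 9 in the comparisons with E14.5 when 1 library was left out, and at 0 for genotype. Over all genes, the deletion called 63 genes in PA2, 162 by DESeq2, 105 with the replicate number as a block and 33 to 66 with 1 library left out. In PA3 it called 31, then 94 by DESeq2, 54 with the replicate block and 8 to 28 with 1 library left out. For the difference of the effects, 7 were called, 29 by DESeq2, 12 with the replicate block, 26 with the block of same-numbered arch libraries and 3 to 12 with 1 library left out. The replicate block changed no count of members called, and apart from the arches the numbers were not shown to pair the samples. Scaling by total counts alone moved the median of all genes between E12.5 and E14.5 to -0.13 and the share of calls that were higher from 49.7% to 38.5%, with 8 members still called. Depth limits Adm in every group and Ndufa4l2 before E14.5 and in PA2.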
